A study of Mus with 9 samples.

Results

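The nuclear genes of the mitochondrial respiratory chain were examined in RNA-seq libraries of mouse bone marrow. Members were protein-coding genes whose symbol begins with Nduf, Uqcr, Atp5 or Cox4 to Cox8, together with Sdha, Sdhb, Sdhc, Sdhd, Cyc1 and Cycs. The rule took 96 of the 54532 genes in the count table (95 symbols, since Atp5o has 2 gene identifiers). Of these, 94 had at least 1 count and 91 passed the filter on low counts, among 15660 genes tested in all. The members left untested were Cox7b2, Cox8b, Cox8c, Ndufa4l2 and the second Atp5o identifier, with 0 to 9 counts in any library. The name rule also takes 8 assembly factors of complex I and 8 alternative isoforms linked to complex IV. These are kept apart below from the other 80 genes. Most of the 80 encode subunits, and they also include the supercomplex assembly factor Cox7a2l and the coupling factor Atp5s.

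The 9 libraries form 3 groups of 3. Per the design text, all groups start from fetal liver cells of embryonic day 12.5 from a conditional AML1-ETO knock-in mouse, in which the leukaemia fusion protein carries an mCherry tag. The cells were infected with the retrovirus MSCV-IRES-EGFP, empty in Vec, with wild-type cyclin D2 in CCND2wt, and with the Thr280Ala form of cyclin D2 in CCND2mut. Cells positive for mCherry and GFP went into lethally irradiated C57BL/6 mice with supportive cells, and RNA came from bone marrow; no sort of the marrow before extraction is given in the labels. Marrow of such hosts can hold recipient and supportive cells beside the infected ones. Nothing in the labels says whether each library came from its own mouse, and the p-values therefore measure the spread between these libraries, which may be technical.

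Respiratory complexes I to IV pass electrons from NADH and succinate to oxygen and pump protons across the inner mitochondrial membrane, and complex V, ATP synthase, uses the gradient to make ATP. Most subunits are encoded in the nucleus, translated in the cytosol and imported, while a core set is encoded by mitochondrial DNA. In blood formation, stem cells are known for low reliance on oxidative phosphorylation, which rises as progenitors commit and divide.

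Total counts per library were 15043755 to 17593634. The mouse gene Ccnd2 did not follow the labels. It was at 76.2 to 86.2 CPM (the gene's count scaled to a common library size with the TMM factor) in Vec. In the libraries labelled CCND2wt it was at 7.30 to 11.1 CPM and in those labelled CCND2mut at 12.6 to 58.2 CPM. Whether reads of the cyclin D2 carried by the vector are counted under this gene was not tested. Group names below therefore mean the libraries so labelled. The 3 CCND2wt libraries lay closer to one another than those of other groups. A chi-square statistic per gene between library pairs reached up to 17.7 there and was 53.3 to 148 within Vec and CCND2mut, where sampling noise alone gives about 1. Cell type markers varied strongly. The sum of 8 neutrophil markers was 13970, 470 and 557 CPM in Vec 1, 2 and 4, 134 to 241 CPM in CCND2wt, and 18200, 2726 and 3778 CPM in CCND2mut 1, 2 and 3. The 6 monocyte and macrophage markers summed to 127 to 1580, 45.7 to 56.2 and 3310 to 4820 CPM in Vec, CCND2wt and CCND2mut, and 6 erythroid markers to 911 to 14600, 1480 to 1590 and 29.0 to 266 CPM. The 6 stem and progenitor markers summed to 1330 to 1760, 1730 to 1810 and 214 to 601 CPM, and the 6 mast cell markers to 7350 to 9640, 10500 to 10900 and 1230 to 9280 CPM. The 4 primary granule markers (Ctsg, Elane, Mpo and Prtn3, made in early myeloid cells) summed to 1360 to 1870, 2500 to 2680 and 4860 to 10100 CPM, the same order of groups without overlap as the member sum below. Of these, Ctsg was higher in all 3 comparisons. Its log2 fold changes were 1.85 for CCND2wt against Vec, 3.04 for CCND2mut against Vec and 1.18 for CCND2mut against CCND2wt. All 4 markers were higher in CCND2mut than in Vec. In CCND2wt against Vec the others gave log2 fold changes of 0.09 for Mpo, -2.84 for Prtn3 and -4.01 for Elane. The rise of this sum from Vec to CCND2wt thus came mostly from Ctsg. The megakaryocyte, B cell and T and NK cell markers were lowest in CCND2mut, at 23.8 to 64.2, 4.98 to 13.3 and 0.467 to 1.15 CPM. All 3 pan-haematopoietic markers, Ptprc, Spi1 and Cd53, were detected in every library. No neutrophil, monocyte, erythroid or mast cell marker was at 0 throughout a group, and the part of this change of cell makeup in the results below was not tested. In bulk RNA, more cells of a type and more RNA per cell cannot be told apart.

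The summed level of the 96 members was lowest in Vec, intermediate in CCND2wt and highest in CCND2mut. It was 6371, 5893 and 6226 CPM in Vec 1, 2 and 4, 7563, 7709 and 7779 CPM in CCND2wt 2, 3 and 4, and 11050, 9815 and 10370 CPM in CCND2mut 1, 2 and 3. No 2 groups overlapped. The group means, 6164 ± 245 (SD, n = 3), 7684 ± 110 and 10410 ± 620 CPM, stood in ratios of 1.25 for CCND2wt to Vec, 1.69 for CCND2mut to Vec and 1.35 for CCND2mut to CCND2wt. Vec 1, whose neutrophil and erythroid marker sums were the highest of its group, also had the highest member sum of its group. The part of cell makeup in these sums was not tested.

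**Figure D1:**
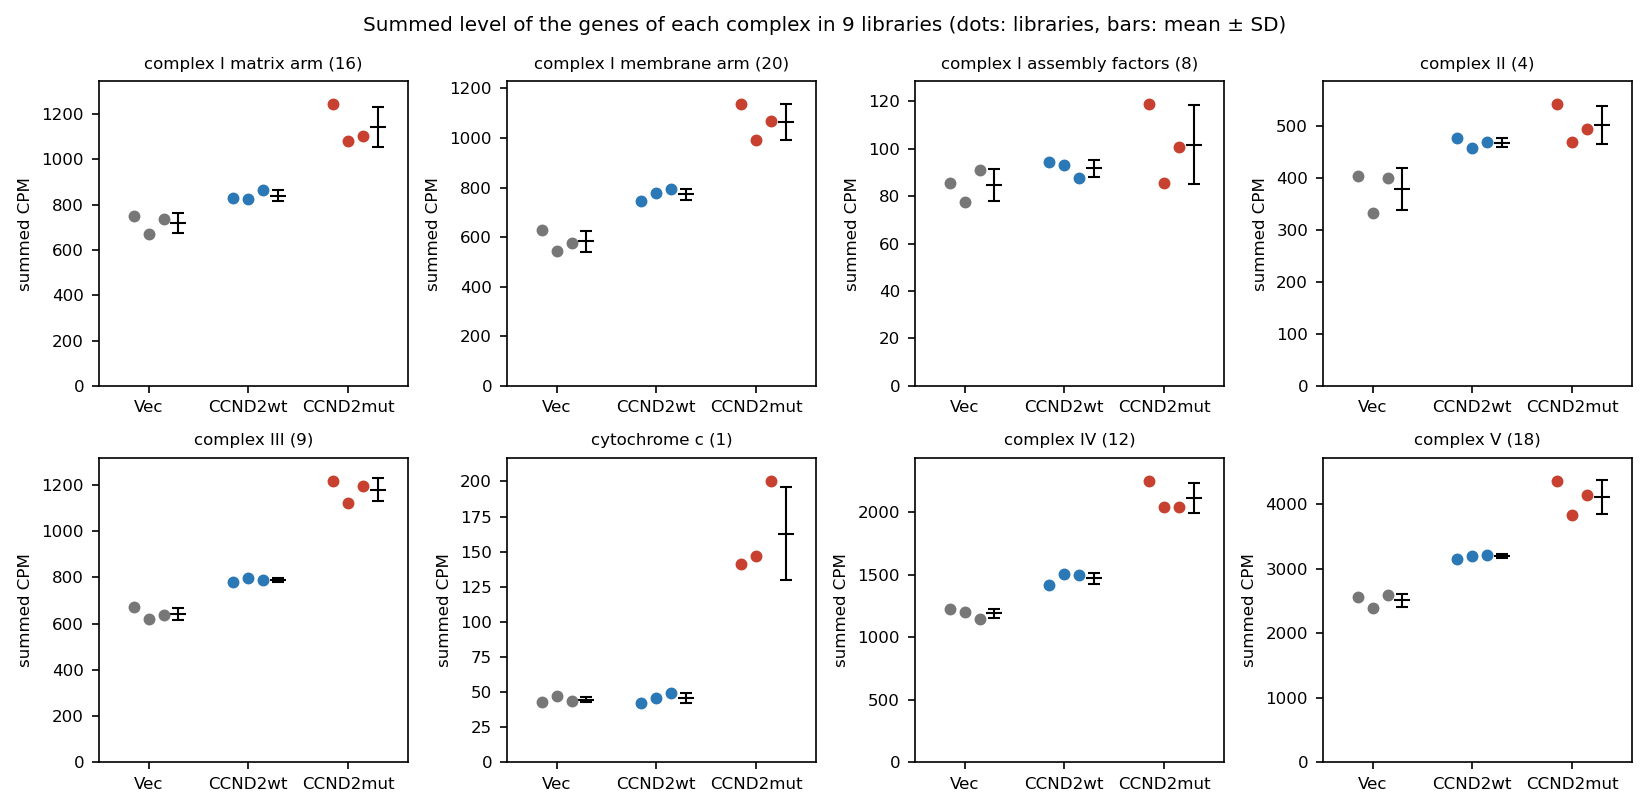
Summed CPM of the member genes of each complex, with the number of genes in parentheses. Each dot is 1 library and the bars give the mean ± SD of 3 libraries. Complexes I, III, IV and V are lowest in Vec and highest in CCND2mut, cytochrome c stands out in CCND2mut only, and the complex I assembly factors overlap between all groups.

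Tested gene by gene with edgeR's quasi-likelihood test and adjustment over all 15660 genes (threshold 0.05), 28 of 91 members were higher in CCND2wt than in Vec and 0 were lower, with a median log2 fold change of 0.35. Over all tested genes 9.71% were higher and 9.05% lower, with a median of -0.04. At an unadjusted p under 0.05, 53 members were higher and 1 lower, while DESeq2 and limma-voom each called 1 member lower, Atp5s. Between CCND2mut and Vec 70 members were higher and 2 lower, with a median of 0.87, against 24.9% and 26.9% of all genes and a median of -0.03. Between CCND2mut and CCND2wt 54 were higher and 2 lower, with a median of 0.47, against 23.2% and 23.8% of all genes and a median of 0.02.

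The number of calls between CCND2wt and Vec changed with the libraries used. The reported fit called 28 of 91 members, beside 18.8% of all genes. Leaving out CCND2wt 2, 3 or 4 left 9, 9 and 8 called members, beside 6.38%, 7.27% and 6.21% of all genes. Leaving out Vec 4 left 12, beside 12.5% of all genes. With the CCND2wt libraries summed into 1 sample, 88 of 91 members had a log2 fold change above 0 in this comparison. The reported fit also gave 88, beside 7379 of all 15660 tested genes. The summed sample holds the same reads, so its count of directions is no separate support. The calls of that fit are given below, with the other changes of processing. The median log2 fold change of the members stayed between 0.32 and 0.41 in all 19 alternatives. Of the 28 calls, 7 passed in every fit that left out a library (Ndufa1, Ndufa5, Sdhc, Uqcrb, Cox6a1, Atp5f1 and Atp5k). Of the 72 calls between CCND2mut and Vec, 69 passed in each of those 9 fits, and the exceptions were Ndufs1, Ndufa8 and Ndufs7. Of the 56 calls between CCND2mut and CCND2wt, 39 passed in each, and leaving out CCND2wt 2, 3 or 4 kept 41, 43 and 40 of them. With the CCND2wt libraries summed, 10 of the 56 remained.

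Counting genes whose groups did not overlap gave a like picture without a model. In CCND2wt against Vec 67 members lay wholly higher and 1 wholly lower, beside 24.6% and 23.7% of all genes. In CCND2mut against Vec 75 lay higher and 3 lower, beside 27.4% and 29.2%. In CCND2mut against CCND2wt the counts were 64 and 3, beside 30.9% and 32.2%. All 3 groups were stacked in the order Vec, CCND2wt, CCND2mut without overlap for 51 of 91 members (56.0%) and for 827 of 15660 genes (5.28%).

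**Figure D2:**
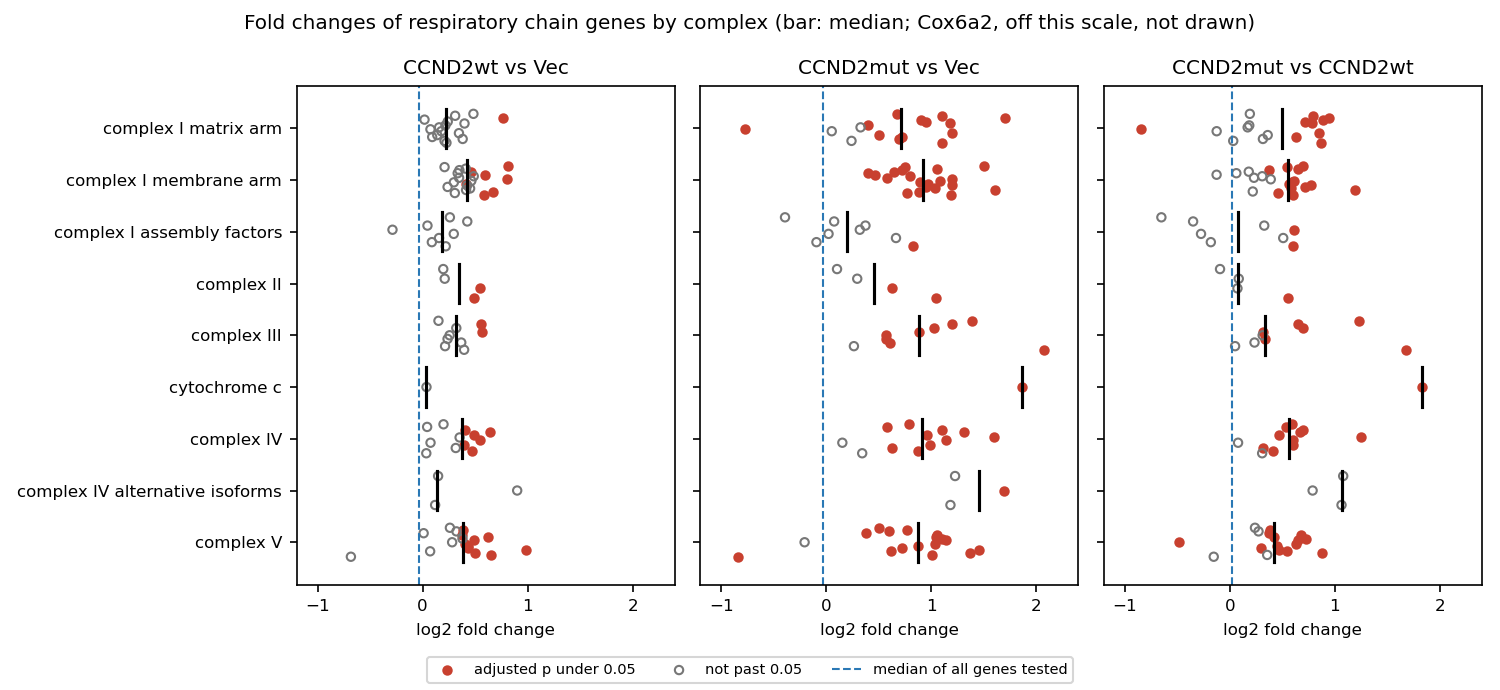
Log2 fold change of each tested member in the 3 comparisons, by complex; filled dots passed an adjusted p of 0.05 in edgeR, black bars are medians, and the dashed line is the median of all 15660 genes. Cox6a2 lies off the scale and is not drawn. Most filled dots lie to the right of the line, and the exceptions on the left are Ndufs3, Atp5g3 and Atp5s.

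Complex I, NADH dehydrogenase, has a matrix arm that takes electrons from NADH and a membrane arm that pumps protons. All 20 genes of the membrane arm were higher in CCND2mut than in Vec (median 0.92), 13 were higher than in CCND2wt, and 7 were higher in CCND2wt than in Vec. Of the 16 matrix arm genes, 12 were higher and 1 lower in CCND2mut against Vec (median 0.71). Against CCND2wt 8 were higher and 1 lower. In CCND2wt against Vec 1 was higher (6.25%), a share below that of all genes. Of all tested genes, 9.71% were higher in CCND2wt against Vec, 24.9% in CCND2mut against Vec and 23.2% in CCND2mut against CCND2wt. The shares lower were 9.05%, 26.9% and 23.8%. The counts by complex here and in the paragraphs below are to be read beside these shares. The 29 supernumerary subunits, which surround the catalytic core, had a median of 0.95 in CCND2mut against Vec with 28 higher. The 7 nuclear catalytic core subunits, which bind the flavin and the iron-sulphur clusters, had a median of 0.40 with 4 higher and 1 lower, and the difference between both sets was not tested.

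Ndufa5, a supernumerary subunit of the matrix arm, was the matrix arm gene called in all 3 comparisons. Its levels were 17.2, 14.9 and 16.2 CPM in Vec 1, 2 and 4, 28.9, 26.6 and 26.4 CPM in CCND2wt 2, 3 and 4, and 48.8, 50.7 and 57.7 CPM in CCND2mut 1, 2 and 3. The groups did not overlap, and the log2 fold changes were 0.76 ± 0.12 (SE, adjusted p = 0.00458) for CCND2wt against Vec and 1.70 ± 0.12 (adjusted p = 3.11e-05) for CCND2mut against Vec. In the membrane arm, Ndufa1 was at 18.6, 19.8 and 15.6 CPM in Vec, 30.6, 28.5 and 35.8 CPM in CCND2wt, and 50.5, 55.7 and 47.3 CPM in CCND2mut. It rose by 0.81 and then by another 0.69 on the log2 scale. Ndufb9 was at 17.3 to 23.4, 24.4 to 27.2 and 56.6 to 61.3 CPM, and its log2 fold change in CCND2mut against Vec was 1.61 (SE 0.14). Per kilobase of gene length and averaged over the 9 libraries, Ndufa2 had the highest level of the matrix arm (95.4 CPM per kb) and Ndufa12 the lowest (9.03), and Ndufb11 (93.4) and Ndufb2 (1.73) stood at the ends of the membrane arm. Ndufa2 and Ndufa7 rose 2.14-fold and 1.94-fold in CCND2mut against Vec.

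Ndufs3 moved the other way. This core subunit of the matrix arm was at 39.4, 37.8 and 42.7 CPM in Vec 1, 2 and 4, at 40.3, 42.0 and 43.8 CPM in CCND2wt, and at 26.5, 23.5 and 20.3 CPM in CCND2mut. All CCND2mut libraries lay below all others, while Vec and CCND2wt overlapped. The log2 fold change was -0.77 ± 0.13 (SE, adjusted p = 0.00127) against Vec and -0.84 ± 0.13 (adjusted p = 0.000851) against CCND2wt. Ndufs3 lies on chromosome 2 at 90894634 to 90904827 (mm10, minus strand). The 37 other genes of at least 5 CPM within 5 Mb of it had a median log2 fold change of -1.03 in CCND2mut against Vec and -0.89 against CCND2wt. The core subunit Ndufv2 (adjusted p = 0.114) did not pass in CCND2mut against Vec, nor did the supernumerary subunit Ndufs4 (log2 fold change 0.05).

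The 8 complex I assembly factors help build the complex and leave it. Their sum was 77.7 to 90.8 CPM in Vec, 87.7 to 94.4 CPM in CCND2wt and 85.6 to 119 CPM in CCND2mut, so all groups overlapped. In CCND2mut against Vec 1 of 8 passed (beside 24.9% of all genes higher), Ndufaf8, at 8.42 to 11.3 and 16.6 to 20.6 CPM (log2 fold change 0.82, adjusted p = 0.00535). In CCND2mut against CCND2wt 2 passed, Ndufaf8 and Ndufaf4. Both of these lost the call without any 1 of the CCND2wt libraries or without CCND2mut 1 (adjusted p up to 0.122 for Ndufaf4, which also lost it without CCND2mut 3, and up to 0.0938 for Ndufaf8). The other 6 factors passed in no comparison, and their log2 fold changes in CCND2mut against Vec ran from -0.39 for Ndufaf1 to 0.66 for Ndufaf6. By edgeR 0 of 8 passed in CCND2wt against Vec, with 1 at an unadjusted p under 0.05, 1 called by DESeq2 and 0 by limma-voom.

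Complex II, succinate dehydrogenase, is the complex with no mitochondrially encoded subunit and also works in the TCA cycle. Its 2 membrane anchors were called and its 2 catalytic subunits were not. The anchor Sdhc was at 62.3, 53.9 and 52.6 CPM in Vec, 83.7, 78.1 and 85.2 CPM in CCND2wt and 85.1, 86.9 and 87.7 CPM in CCND2mut. It was thus higher in both CCND2 groups than in Vec (log2 fold changes 0.55 and 0.62), and the CCND2 groups overlapped. Sdhd lay between 51.5 and 70.3 CPM in Vec, 86.6 and 88.3 CPM in CCND2wt, and 119 and 142 CPM in CCND2mut, a log2 fold change of 1.04 for CCND2mut against Vec. The flavin subunit Sdha was at 182 to 233, 234 to 247 and 198 to 247 CPM, with adjusted p = 0.302 and 0.519 against Vec. The iron-sulphur subunit Sdhb was at 44.8 to 56.6, 56.8 to 58.8 and 57.8 to 66.8 CPM, with adjusted p = 0.223 and 0.0569; without Vec 1 it passed in CCND2mut against Vec (adjusted p = 0.0192).

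Complex III hands electrons from ubiquinol to cytochrome c. In CCND2mut against Vec 8 of its 9 genes were higher (median 0.88), and Uqcrh was not called (log2 fold change 0.26, adjusted p = 0.0599). Uqcrq, a small structural subunit, had the largest fold change of the 9: 37.8, 37.1 and 36.9 CPM in Vec, 45.9, 48.4 and 52.7 CPM in CCND2wt, and 111, 183 and 176 CPM in CCND2mut 1, 2 and 3. CCND2mut 1 was the lowest of its group and still above every other library. The log2 fold change was 2.07 ± 0.18 (SE, adjusted p = 7.46e-05) against Vec and 1.68 ± 0.18 (adjusted p = 0.00018) against CCND2wt. Cyc1, the haem-carrying cytochrome c1, was at 79.8, 77.1 and 83.1 CPM in Vec, 89.9, 83.6 and 92.8 CPM in CCND2wt, and 227, 177 and 222 CPM in CCND2mut (log2 fold change 1.38 against Vec). The core proteins Uqcrc1 and Uqcrc2 and the Rieske iron-sulphur protein Uqcrfs1 gave smaller values, 0.57, 0.57 and 0.60 in CCND2mut against Vec. Uqcrfs1 was at 70.5 to 81.1 CPM in Vec, 90.5 to 104 CPM in CCND2wt and 104 to 132 CPM in CCND2mut. Uqcrb and Uqcr10 were the 2 genes of the complex also called in CCND2wt against Vec (log2 fold changes 0.57 and 0.55). In CCND2mut against CCND2wt, Uqcrb (0.32, adjusted p = 0.0263) lost its call without CCND2wt 2 or 4 or any 1 of the CCND2mut libraries.

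Cycs, the mobile carrier cytochrome c, differed between CCND2mut and both other groups. It was at 43.1, 46.9 and 44.0 CPM in Vec, 42.5, 45.6 and 49.3 CPM in CCND2wt, and 141, 147 and 201 CPM in CCND2mut. Vec and CCND2wt overlapped, with a log2 difference of 0.04 (SE 0.14, adjusted p = 0.886). Against Vec the CCND2mut value was 1.87 ± 0.15 (SE, adjusted p = 4.69e-05), or 3.65-fold.

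Complex IV, cytochrome c oxidase, passes electrons to oxygen. Of 12 genes, 6 were higher in CCND2wt than in Vec, and 10 in CCND2mut than in either other group (median 0.91 against Vec). Cox6c was at 72.5, 70.1 and 66.5 CPM in Vec, 80.8, 89.0 and 97.0 CPM in CCND2wt and 232, 199 and 204 CPM in CCND2mut, a log2 fold change of 1.60 ± 0.11 (SE, adjusted p = 2.85e-05) against Vec. Cox6a1 was at 93.4 to 121, 161 to 168 and 256 to 274 CPM. Its groups did not overlap, and it was called in all 3 comparisons. Cox4i1, the regulatory subunit that binds nucleotides, was at 188 to 207, 218 to 234 and 307 to 371 CPM, and the small subunit Cox5a gave 0.57 against Vec, with no call in CCND2wt against Vec (adjusted p = 0.851). Ndufa4, once assigned to complex I and now to complex IV, was at 98.6 to 139, 119 to 139 and 146 to 163 CPM (adjusted p = 0.0733 for CCND2mut against Vec, and 0.0466 without Vec 2). Cox7a2l, a supercomplex assembly factor, was at 197 to 223, 206 to 238 and 197 to 273 CPM, with overlap between all groups.

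The tissue-specific isoforms stayed minor. Per kilobase of gene length, Cox4i1 made up 99.0 to 99.7% of the sum of Cox4i1 and Cox4i2 in all 9 libraries. Cox6b2, known from testis, was at 6.35 to 10.7 CPM in Vec, 12.9 to 16.3 CPM in CCND2wt and 13.8 to 34.8 CPM in CCND2mut, a log2 fold change of 1.69 (adjusted p = 0.00412) for CCND2mut against Vec. Cox6a2, the heart and muscle isoform, was uneven: 1.87, 0.0679 and 0.192 CPM in Vec, 0.106, 0 and 0.110 CPM in CCND2wt, and 0.0607, 27.0 and 7.44 CPM in CCND2mut 1, 2 and 3. It passed in CCND2mut against CCND2wt (adjusted p = 0.0197) although CCND2mut 1, with 1 count, lay among the CCND2wt libraries, and the call was lost without CCND2mut 2 or any 1 of the CCND2wt libraries (adjusted p 0.0543 to 0.0721). Against Vec it had adjusted p = 0.0684, and it passed without Vec 1 (0.0365) or without CCND2mut 1 (0.0124). The muscle gene Ckm, 1 of 5 markers of other tissues, was at 0 to 0.340 CPM in Vec, 1.13 to 1.32 CPM in CCND2wt and 2.19, 7.21 and 5.91 CPM in CCND2mut 1, 2 and 3 (log2 fold change 4.53 for CCND2mut against Vec, adjusted p = 0.00164). The 5 markers summed to 0.679 to 7.48, 2.04 to 2.59 and 16.9 to 25.2 CPM, with the heart gene Myh6 and the liver gene Alb at 0 in all CCND2mut libraries and the epithelial gene Cdh1 at 0 in all CCND2wt libraries. Their part in the Cox6a2 values was not tested. Per kilobase, Cox6a2 made up 9.73% of the sum with Cox6a1 in CCND2mut 2 and 2.91% in CCND2mut 3. The share of Cox6b2 in the sum with Cox6b1 was 5.51 to 8.17% in Vec, 7.93 to 9.71% in CCND2wt and 6.71 to 13% in CCND2mut. Cox4i2 and Cox7a1, the latter a muscle isoform, stayed below 5 CPM in every library and passed in no comparison. Without CCND2mut 1, Cox7a1 passed in CCND2mut against Vec (adjusted p = 0.0195) and against CCND2wt (0.028). Cox4i2 passed in CCND2mut against Vec without Vec 2 (adjusted p = 0.0464). Cox6b2 passed in CCND2wt against Vec without Vec 1 or CCND2mut 2 (adjusted p 0.0339 to 0.0483) and in CCND2mut against CCND2wt without CCND2mut 2 (0.0144). Cox8c had 0 counts in every library.

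Complex V makes ATP in its F1 head, driven by a membrane rotor of subunit c. Of 17 genes tested, 10 were higher in CCND2wt than in Vec. In CCND2mut against Vec 15 were higher and 1 lower (median 0.87), and against CCND2wt 12 were higher and 1 lower. Atp5b, the catalytic beta subunit, was at 681 to 758, 931 to 954 and 1109 to 1290 CPM. All 5 genes of the F1 head were higher in CCND2mut than in Vec. Atp5k, a membrane subunit that joins ATP synthase dimers, was at 18.6, 15.9 and 13.5 CPM in Vec, 32.3, 27.6 and 34.9 CPM in CCND2wt, and 38.05 to 47.5 CPM in CCND2mut. Its log2 fold change in CCND2wt against Vec, 0.98 ± 0.16 (SE, adjusted p = 0.00596), was the largest of the 28 called members. In CCND2mut against CCND2wt its call (0.47, adjusted p = 0.0395) was lost in 6 of the 9 fits that left out a library (Vec 2, CCND2wt 2, 3 or 4, CCND2mut 1 or 3), with adjusted p up to 0.144. The F1 alpha subunit Atp5a1 was at 619 to 716, 787 to 802 and 894 to 1003 CPM (0.50 against Vec), and the small F1 subunit Atp5e at 76.3 to 78.5, 97.6 to 105 and 153 to 175 CPM (1.05). Atp5mpl, a small membrane subunit, was at 35.6 to 42.9, 52.0 to 56.1 and 89.2 to 106 CPM (1.37). Atp5s, a coupling factor, was lower: 13.9 to 16.1, 9.14 to 9.80 and 5.88 to 10.9 CPM. It passed in CCND2mut against Vec (log2 fold change -0.84, adjusted p = 0.0154) but not in CCND2wt against Vec (-0.68, adjusted p = 0.0699).

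Subunit c comes from 3 genes that encode the same mature protein with different import sequences, and they split. Atp5g2 was at 105, 107 and 104 CPM in Vec, 142, 147 and 156 CPM in CCND2wt, and 268, 201 and 231 CPM in CCND2mut. Atp5g3 was at 119, 125 and 119 CPM in Vec, 149, 140 and 153 CPM in CCND2wt, and 118, 93.3 and 104 CPM in CCND2mut. Atp5g3 was thus lower in CCND2mut than in CCND2wt, with a log2 fold change of -0.49 ± 0.11 (SE, adjusted p = 0.00604), while Atp5g2 rose by 0.65 in the same comparison. Against Vec, Atp5g3 gave -0.21 (adjusted p = 0.139), and 0.0389 without CCND2mut 1. Per kilobase, Atp5g3 made up 44.0 to 45.2% of the 3 genes in Vec, 40.3 to 42.3% in CCND2wt and 23.8 to 24.7% in CCND2mut. The share of Atp5g2 was 50.3 to 51.0%, 52.7 to 55.2% and 69.2 to 70.4%. The sum of the 3 per kilobase was 122 to 127, 159 to 171 and 173 to 227. Atp5g3 lies on chromosome 2 (73908447 to 73911326, mm10), where 40 genes within 5 Mb had a median of -0.90 in CCND2mut against CCND2wt. Atp5g2 lies on chromosome 15, where the genes within 5 Mb had a median of 0.71.

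**Figure D3:**
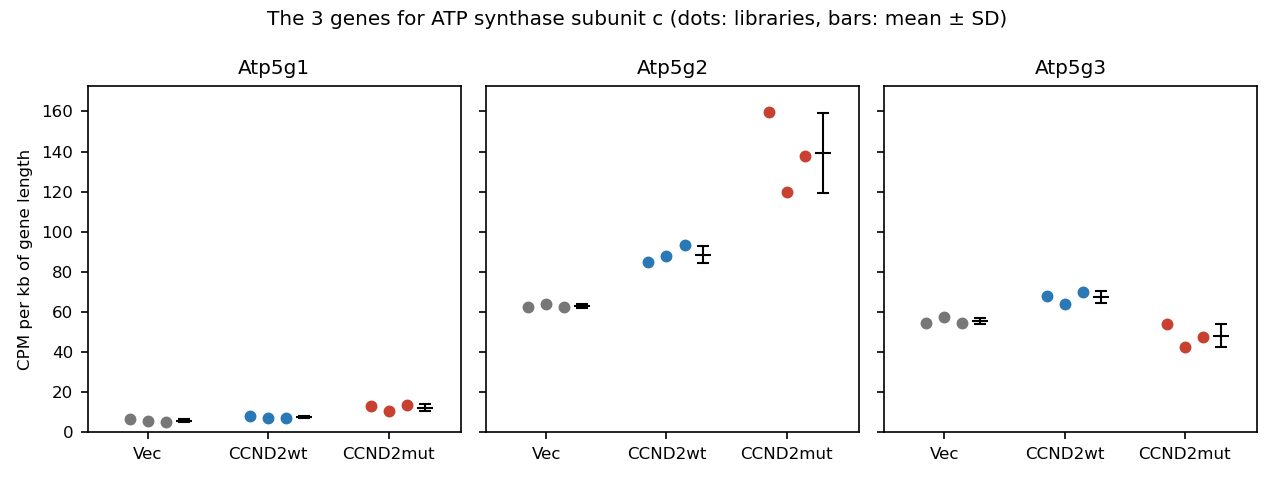
Level of the 3 subunit c genes in CPM per kilobase of gene length; each dot is 1 library and bars give the mean ± SD of 3 libraries. Atp5g2 is lowest in Vec and highest in CCND2mut, Atp5g3 is lowest in CCND2mut, and Atp5g1 stays the smallest.

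Levels per kilobase, averaged over the 9 libraries, differed within each complex. The highest and lowest were Sdhd (75.2 CPM per kb) and Sdhc (23.1) in complex II, Uqcr10 (98.2) and Uqcrq (44.3) in complex III, Cox8a (357) and Cox5a (19.1) in complex IV, and Atp5a1 (254) and Atp5s (5.41) in complex V. Gene length is the value in the deposited table, and no source used here says how it was derived.

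Set side by side, the 3 comparisons gave these patterns of calls. A group of 22 members was higher in all 3, namely Ndufa5, Ndufa1, Ndufb5 and Ndufs5 of complex I, Sdhd, Uqcr10, Uqcrb, 6 subunits of complex IV and 9 of complex V. This was 24.2% of the members, beside 1.25% of all tested genes. Another 30 were higher in CCND2mut than in both other groups and not called in CCND2wt against Vec (33% of members, 14% of all genes). A set of 6 was higher in both CCND2 groups than in Vec and not called between them: Ndufa3, Ndufab1, Ndufb2, Ndufc1, Sdhc and Atp5o (6.59% and 3.75%). Ndufab1, the mitochondrial acyl carrier protein, had log2 fold changes of 0.59 and 0.47 against Vec. Another 12 were higher in CCND2mut against Vec with no other call (13.2% and 4.41%), and 16 were called in no comparison (17.6% and 35%). All comparisons share groups, and a missing call does not show that a gene did not differ. By group means alone, 79 of 91 members were ordered Vec, CCND2wt, CCND2mut, as were 20.8% of all genes.

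Of the 96 members, 40 overlap another annotated gene, and for 18 of these that gene has a mean of at least 5 CPM. The strand setting of the counting is not given in the sources used here, so reads of Cox6c and of Vps13b on the opposite strand (mean 106 CPM), or of Ndufs3 and Kbtbd4 (5.50 CPM), cannot be told apart with certainty. A further 12 processed pseudogenes carry names of the same form, and reads could be split between them and members.

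The position of members on chromosomes moved with their values. In CCND2mut against Vec the other genes of at least 5 CPM had medians of 0.51 on chromosome 6 and 0.65 on chromosome 15, while the medians of the remaining chromosomes lay between -0.17 and 0.17. The median of chromosome 15, as centred log2 CPM, was 0.40 to 0.41 in all 3 CCND2mut libraries and -0.225 to -0.153 in the other 6. The 10 members on these chromosomes (Cycs, Ndufa5, Ndufa9, Ndufb2 and Ndufa4 on 6, and Cyc1, Cox6c, Ndufb9, Atp5g2 and Ndufa6 on 15) had a median of 1.29, and 9 were higher. Without them, 61 of 81 members were higher and 2 lower, with a median of 0.77. In all, 85 of 91 members had a larger fold change than the median of their own neighbours within 5 Mb. The share of all tested genes that do so is not given here, so this count has no background beside it. Uqcrq, on chromosome 11, had neighbours with a median of -0.40. What the chromosome shift contributes to single genes was not tested.

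**Figure D4:**
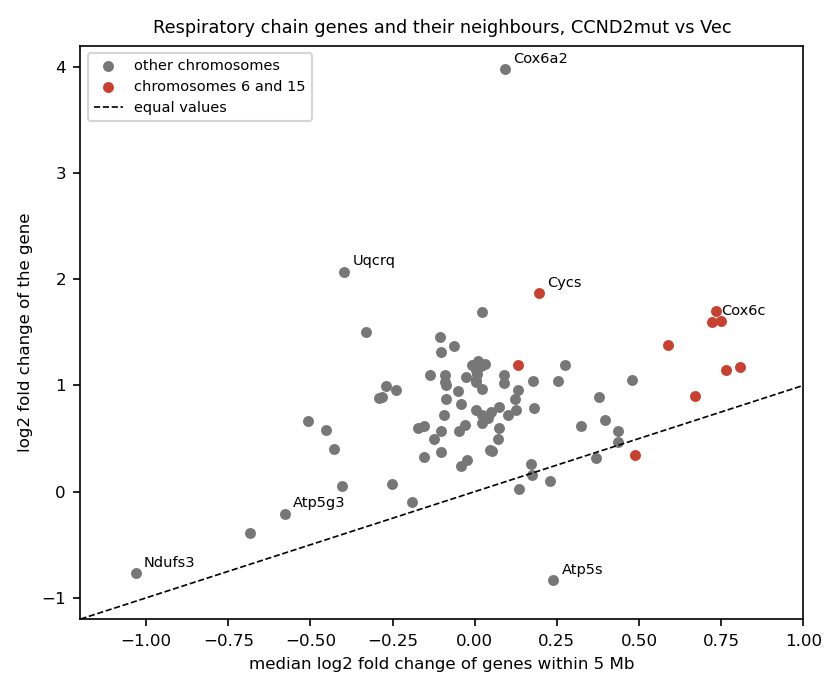
Log2 fold change of each member in CCND2mut against Vec (vertical) against the median of other genes within 5 Mb (horizontal); the dashed line marks equal values. Ndufs3 and Atp5g3 sit at the low end of both axes, 9 of the 10 red members lie above the line, and 85 of 91 members in all do so. The share of all tested genes above such a line is not given.

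Gene length and abundance also moved with the comparison. Other protein-coding genes of up to 1000 bases had a median log2 fold change of 0.48 in CCND2mut against Vec, those over 1000 and up to 2000 bases 0.34, and longer ones -0.04. Members of the same length classes had medians of 1.12, 0.84 and 0.62. Of other protein-coding genes of up to 2000 bases and at least 50 CPM, 56.6% were higher (median 0.59), beside 76.9% of the tested members (median 0.87). In CCND2mut against CCND2wt 55.6% of those short, abundant genes were higher (median 0.55), beside 59.3% of the members (median 0.47). By the median, the full set of members was thus not above those genes in that comparison. That set also holds members over 2000 bases or below 50 CPM, so it is not matched to those genes in either comparison. By length class alone, other protein-coding genes had medians of 0.46, 0.27 and -0.02 in CCND2mut against CCND2wt, and members 0.62, 0.44 and 0.33. Members limited to the same length and abundance were not compared. In CCND2wt against Vec the other genes had medians of 0.00, 0.02 and -0.02 in these length classes and the members 0.39, 0.37 and 0.24.

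The 13 subunits encoded by mitochondrial DNA followed another order. Their sum was 10180, 15240 and 9934 CPM in Vec 1, 2 and 4, 8664, 9150 and 8573 CPM in CCND2wt, and 14900, 15080 and 14110 CPM in CCND2mut. CCND2wt was the lowest group, and Vec 2 reached the level of CCND2mut. The 13 genes were counted very unevenly. mt-Co1, the largest part of the sum in every library, was at 3965 to 8229 CPM. By contrast mt-Co2 was at 23.5 to 46.0 CPM and mt-Atp8 at 0.26 to 0.93 CPM. The sum, and the ratio given below, thus mostly follow a few genes and do not weigh the 13 subunits alike. The reason for the low counts was not tested. By edgeR 0 of 13 passed in CCND2wt against Vec (median -0.41), with 5 lower at an unadjusted p under 0.05, while DESeq2 called 3 lower and limma-voom 0. In edgeR 4 (30.8%, beside 24.9% of all genes) were higher in CCND2mut against Vec, namely mt-Nd3, mt-Nd4, mt-Nd5 and mt-Nd6. The other complex I genes gave -0.12 for mt-Nd1, 0.01 for mt-Nd2 and 1.23 for mt-Nd4l (adjusted p = 0.67, 0.953 and 0.0531). In CCND2mut against CCND2wt 8 of 13 were higher (median 0.75), beside 23.2% of all genes. The ratio of nuclear member counts to the counts of these 13 genes was 0.626, 0.387 and 0.627 in Vec, 0.843 to 0.907 in CCND2wt and 0.651 to 0.742 in CCND2mut.

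**Figure D5:**
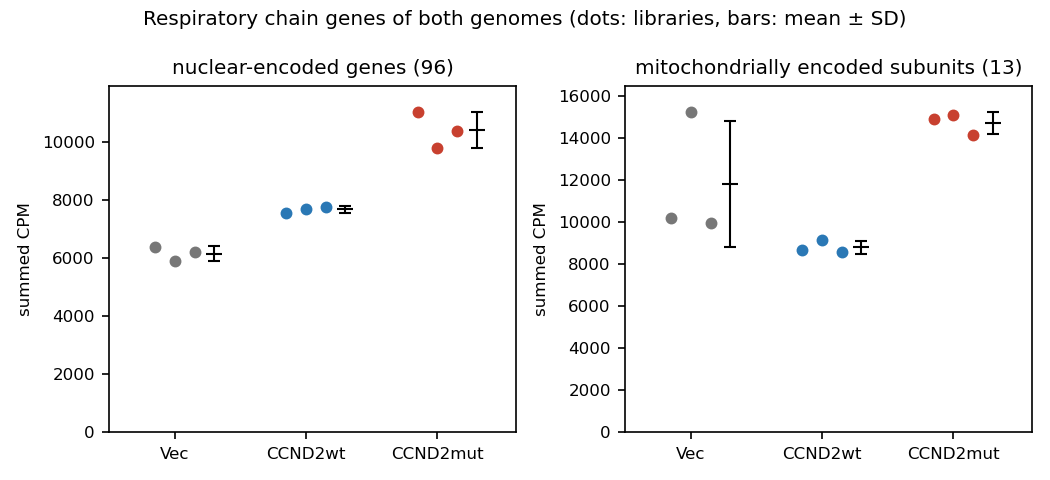
Summed CPM of the 96 nuclear members and of the 13 mitochondrially encoded subunits; each dot is 1 library and bars give the mean ± SD of 3 libraries. The nuclear sum is lowest in Vec and highest in CCND2mut, while the mitochondrial sum is lowest in CCND2wt and spreads widely in Vec. In every library mt-Co1 is the largest part of the mitochondrial sum.

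Genes that serve the chain were counted from written lists, to be read beside the 24.9% of all genes higher and 26.9% lower in CCND2mut against Vec. Of 25 import and chaperone genes tested, 17 were higher and 1 lower in CCND2mut against Vec (median 0.71) and 1 was higher in CCND2wt against Vec. They include Tomm22 (log2 fold change 1.81), a receptor of the outer membrane import pore, and Timm50 (1.19), of the inner membrane one. Of 18 genes of the TCA cycle and pyruvate dehydrogenase, 11 were higher and 2 lower in CCND2mut against Vec. Citrate synthase Cs (1.07) rose, and isocitrate dehydrogenase Idh2 fell by 0.77 on the log2 scale. Of 37 assembly factors of complexes II to V tested, 15 were higher and 0 lower by edgeR, with 1 lower at an unadjusted p under 0.05 and 0 lower by DESeq2 and by limma-voom. Of 9 further complex I assembly factors 3 were higher. Of 13 genes of coenzyme Q synthesis 8 were higher and 3 lower, with Coq7 at 1.95 and Coq8a at -2.77. Of 8 carriers and porins 5 were higher and 1 lower, Slc25a4 (-0.65). Slc25a5, which like Slc25a4 encodes an ADP/ATP carrier, was at 263 to 280 CPM in Vec and 383 to 446 CPM in CCND2mut and rose by 0.59 (adjusted p = 0.00171), while Slc25a4 was at 67.5 to 73.1 and 31.3 to 54.7 CPM. Of 19 tested regulators of mitochondrial biogenesis 6 were higher (31.6%) and 2 lower (10.5%), with a median of 0.06, and the share of higher genes among these and among the 9 complex I assembly factors (33.3%) was near that of all genes. Of the genes for the factor NRF-2, Gabpa encodes the alpha part and Gabpb1 and Gabpb2 encode beta parts. Between CCND2mut and Vec, Gabpa, which overlaps the member Atp5j on the other strand, rose by 0.62, and Gabpb1 was at 82.9, 152 and 91.5 CPM in Vec 1, 2 and 4 and at 62.1, 47.0 and 53.9 CPM in CCND2mut, where it was lower (adjusted p = 0.0058). Gabpb2 was at 143 to 155 CPM in Vec and 169 to 202 CPM in CCND2mut and rose by 0.29 (adjusted p = 0.0382). Nrf1, which encodes another activator of these genes, rose by 0.40.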

How the data were processed

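RNA from bone marrow was extracted with TRIzol and made into libraries with an NEBNext Ultra kit, per the labels' protocols. The deposited values are raw counts per gene. Per the submitters' processing notes, the tools were CASAVA 1.8, fastp, HISAT2 2.0.5, featureCounts 1.5.0-p3 and DESeq2 1.20.0, with build mm10. Neither the annotation release nor the strand setting is given in the sources used here.

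The titles gave each library's group. Genes were filtered with filterByExpr and scaled with TMM. All 9 libraries entered 1 quasi-likelihood fit in edgeR 4.0.16 (R 4.3.3, 6 residual degrees of freedom), with Benjamini-Hochberg adjustment over 15660 genes. SE is the absolute log2 fold change divided by the square root of F. CPM uses the filtered library size times the TMM factor. The script was tested on simulated data. Precision rests on 3 libraries a group.

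Alternatives were RLE factors, DESeq2 1.42.0, limma-voom (limma 3.58.1), 2 other filters, fits of only the groups compared, a replicate term, removal of haemoglobin, immunoglobulin and mitochondrial genes, and each replicate left out. The sum of the CCND2wt libraries, and leaving out Vec 1 and CCND2mut 1 together, were chosen after seeing the data.

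The members and gene lists were chosen with earlier results of these data known. Named members were up to 3 called per complex, comparison and direction by smallest adjusted p, the alternative isoforms with their partners, Cox7a2l, Cycs, Cyc1, the Sdh genes, and the highest and lowest per length in each complex. Ndufs1, Ndufs4, Ndufs7, Ndufv2, Ndufa6, Ndufa8, Ndufa9, Ndufab1, Ndufaf1, Ndufaf6, Uqcrc1, Uqcrc2, Uqcrfs1, Uqcrh, Atp5b, Atp5g1 and Atp5j were named after their values were seen. The same holds for the listed pathway genes and for members listed only for a pattern of calls.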

Additional observations from a re-analysis of the deposited data

How the results depend on the processing

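No called member reversed its direction in the 19 alternatives that tested it; Cox6a2 was not testable in CCND2mut against CCND2wt under a minimum of 5 CPM or with only those groups. The median log2 fold change of the members ranged from 0.32 to 0.41 for CCND2wt against Vec, from 0.77 to 0.89 for CCND2mut against Vec and from 0.41 to 0.53 for CCND2mut against CCND2wt. Called members in CCND2wt against Vec (28) became 45 with DESeq2, 15 with the replicate block, 0 with the CCND2wt libraries summed to 1 sample, 47 without Vec 1 and CCND2mut 1, and 8 to 41 when single replicates were left out. Called genes in that comparison (2938) became 1636 with the replicate block, 39 with the summed libraries, 4470 without Vec 1 and CCND2mut 1, and 1019 to 3817 without single replicates. In CCND2mut against CCND2wt 10 of the 56 called members were still called with the summed libraries, where 2378 genes were called in all (7360 in the reported fit); a single CCND2wt sample has no spread of its own, and the fit assumes that it varies like the other groups. In CCND2mut against Vec 66 to 74 members were called throughout (72 in the reported fit).

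The median of the complex I assembly factors in CCND2mut against CCND2wt (0.07) became -0.0562 with the replicate block, -0.101 to 0.138 without single replicates (-0.101 without CCND2mut 1) and -0.111 without Vec 1 and CCND2mut 1. Cytochrome c in CCND2wt against Vec (0.04) became -0.0774 with the replicate block and -0.0134 to 0.0955 without single replicates (-0.0134 without CCND2wt 4). The causes were not tested. Each comparison shares 2 replicate numbers, and same-numbered libraries did not deviate together in every pair (correlations from -0.073 to 0.187), so the numbers were not taken as pairs. For the named members, 2574 of 2782 values kept their direction and side of the threshold.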

Other observations

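Genes that belong to the chain but lie outside the name rule were looked at after the member values were seen. Usmg5, a small ATP synthase subunit, was at 40.7, 38.4 and 35.8 CPM in Vec, 46.6, 51.6 and 51.5 CPM in CCND2wt, and 67.0 to 81.6 CPM in CCND2mut, with no overlap between groups. Its log2 fold change in CCND2mut against Vec was 0.98 (SE 0.11, edgeR adjusted p = 0.000225). Ndufb1-ps, annotated as a non-coding RNA from a bidirectional promoter, was at 16.9 to 25.4, 24.7 to 31.7 and 46.6 to 52.5 CPM, with a log2 fold change of 1.24 (adjusted p = 0.000569). Atpif1, the inhibitor of ATP synthase, was at 73.4, 42.4 and 42.5 CPM in Vec, 71.4 to 86.3 CPM in CCND2wt and 69.1 to 79.1 CPM in CCND2mut, and passed in none of the 3 comparisons (adjusted p = 0.0928, 0.0705 and 0.852).

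CCND2mut 1, the library with the highest neutrophil marker sum, was the highest of its group in 59 of 91 members, and CCND2mut 2 was the lowest in 51. In Vec, Vec 1 was the highest in 53 and Vec 2 the lowest in 47. The part of cell makeup in this order was not tested. For all tested genes, the share highest or lowest in these libraries is not given here. These counts thus have no background and do not show a trait of the members. Among 88 members of at least 5 CPM, the median coefficient of variation was 9.51% in Vec, 5.87% in CCND2wt and 10.9% in CCND2mut.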
